A study of Mus musculus with 8 samples.

Results

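The 6 piRNA-producing loci of the mouse genome, 19-qC2-1361.2, 9-qF4-150.2, 4-qB3-3994.3, 13-qA5-967.1, 10-qA3-143.2 and 3-qA2-617.1, are 6 of the 208 loci measured in testis. They belong to the 94 loci that are named for a chromosome band rather than for a gene. They were picked by name from measured values: the differences between the genotypes in small RNA and in long RNA set them apart from the loci that had fewer piRNAs together with more precursor RNA in Exd2∆ testis. Those differences are therefore given as a description, with no test, and support nothing by themselves.

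Testes of adult mice of 2 genotypes were compared. Exd2∆ mice, made by Cas9 editing of C57BL6-background embryos, lack the end of exon 2 of Exd2 and part of the intron that follows it, and the controls were Exd2+/+ mice. Each genotype had 2 small RNA libraries, from gel-cut small RNA, and 2 long RNA libraries, from rRNA-depleted total RNA, which makes 8 libraries. The labels call the replicates biological but do not tie a small RNA library to a long RNA library of the same animal, and they say nothing of littermates or of further treatment. The small RNA libraries held 28408830 to 37660202 estimated counts over the 208 loci and the long RNA libraries 960909 to 1842625. Exd2 lies outside these loci, and neither its level nor markers of testis cell types were analysed here. Whole testis mixes germ cells of many stages with somatic cells, so fewer cells of a type and less RNA per cell cannot be told apart.

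As background, piRNAs are small RNAs of the germ line that are bound by PIWI proteins and guide them to complementary RNA, including RNA of transposons. In mouse testis most are cut from long single-stranded precursor transcripts of defined loci, and at the pachytene stage of meiosis many of these loci are transcribed under the factor A-MYB. Precursors are processed beside mitochondria and in the cement between them, and the cut ends are trimmed to the final length. EXD2 is a protein with an exonuclease domain. Small RNA counts at a locus therefore stand for piRNA output, and long RNA counts for the precursor, together with any other RNA of the same stretch.

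The loci were placed by the coordinates of the tables on GRCm38 and compared with GENCODE M21 and RefSeq gene models. None lies within 100 kb of another locus of the tables. Sequences at the beginning of annotated transcripts are shown because a start near the 5′ end of a locus, on its strand, marks a candidate precursor. Not all of those shown start there. For 19-qC2-1361.2, 4-qB3-3994.3 and 3-qA2-617.1 a RefSeq (GRCm38.p6) promoter window of 300 bases, from 250 before to 50 after the start of the gene on the strand of the locus, was at hand. For 9-qF4-150.2 the window is that of Tcaim, which starts on the opposite strand beside the 5′ end of the locus. That window does not show a precursor start. For 13-qA5-967.1 and 10-qA3-143.2 the first 100 bases of the GENCODE M21 transcript are given in place of a window on their strand. The window of Bclaf1, on the opposite strand at 10-qA3-143.2, is described below but not shown. Capitals mark 4 words of 6 letters that begin with C or T and go on with AACTG or AACGG, forms of the element that MYB factors bind, searched on both strands with no overlap between words.
19-qC2-1361.2, 4931408D14Rik, chr19:37264046-37264345, - strand: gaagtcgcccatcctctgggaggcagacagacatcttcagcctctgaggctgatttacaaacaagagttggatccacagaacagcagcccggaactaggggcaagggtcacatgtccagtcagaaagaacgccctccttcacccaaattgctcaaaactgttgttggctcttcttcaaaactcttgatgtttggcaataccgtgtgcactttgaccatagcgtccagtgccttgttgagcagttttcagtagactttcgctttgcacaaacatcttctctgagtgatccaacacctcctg
9-qF4-150.2, Tcaim, chr9:122805297-122805596, + strand: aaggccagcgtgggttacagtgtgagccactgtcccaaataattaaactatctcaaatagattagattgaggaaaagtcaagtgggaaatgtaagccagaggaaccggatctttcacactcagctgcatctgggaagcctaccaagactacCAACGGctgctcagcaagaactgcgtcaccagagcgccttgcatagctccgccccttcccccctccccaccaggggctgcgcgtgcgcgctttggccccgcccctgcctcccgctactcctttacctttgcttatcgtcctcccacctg
4-qB3-3994.3, 1700042G15Rik, chr4:57364243-57364542, - strand: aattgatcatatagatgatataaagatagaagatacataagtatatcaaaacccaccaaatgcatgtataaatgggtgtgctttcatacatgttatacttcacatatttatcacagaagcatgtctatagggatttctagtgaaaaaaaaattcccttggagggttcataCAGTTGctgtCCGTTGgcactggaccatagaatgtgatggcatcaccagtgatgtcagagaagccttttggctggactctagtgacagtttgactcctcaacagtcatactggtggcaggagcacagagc
13-qA5-967.1, 4921525O09Rik, chr13:52096741-52096840, + strand: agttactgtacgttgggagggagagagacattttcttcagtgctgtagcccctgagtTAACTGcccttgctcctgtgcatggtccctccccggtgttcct
10-qA3-143.2, 4933406P04Rik, chr10:20312195-20312294, - strand: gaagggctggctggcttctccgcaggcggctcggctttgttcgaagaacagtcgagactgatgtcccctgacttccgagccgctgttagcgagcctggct
3-qA2-617.1, Gm31466, chr3:20506157-20506456, - strand: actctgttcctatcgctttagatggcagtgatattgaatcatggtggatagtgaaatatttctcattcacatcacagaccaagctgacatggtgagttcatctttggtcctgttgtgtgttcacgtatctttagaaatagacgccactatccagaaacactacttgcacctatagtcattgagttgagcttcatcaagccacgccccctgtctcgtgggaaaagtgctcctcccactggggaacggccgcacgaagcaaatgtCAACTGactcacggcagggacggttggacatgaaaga

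Of 32851 RefSeq promoter windows of this length, 28.3% held at least 1 of the 4 words and 5.09% held 2 or more. The window of 1700042G15Rik at 4-qB3-3994.3 held 2 of them, and those of Gm31466 at 3-qA2-617.1 and of Tcaim held 1 each. Those of 4931408D14Rik at 19-qC2-1361.2 and of Bclaf1 at 10-qA3-143.2 held 0. A match of letters is a description and not a site of binding, and a window with no match says only that these letters are not in it. The windows differed in base composition. That at 4-qB3-3994.3 had a GC content of 39.7% and 1 CpG. The 4931408D14Rik window had 49% and 6, and the Gm31466 window 47% and 10. The Tcaim window had 55.7% and 13, and the Bclaf1 window 66.3% and 28. The medians over all windows were 52.7% and 7.

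The 6 loci differed in size and setting. 3-qA2-617.1 (chromosome 3, 20402671 to 20506199, minus strand) spans 104 kb and is the longest of the 94 band-named loci; the long noncoding RNA gene Gm31466 covers 100% of it in RefSeq and 3102 bp, at the 5′ end, in GENCODE M21. 10-qA3-143.2 (chromosome 10, 20310505 to 20312760, minus strand) spans 2.26 kb and is rank 91 of 94 by length. The lincRNA 4933406P04Rik, of a single exon, covers 79.3% of it and starts 466 bp inside its 5′ end. 13-qA5-967.1 (chromosome 13, 52096734 to 52124158, plus strand) spans 27.4 kb and coincides with the noncoding gene 4921525O09Rik, whose start lies 7 bp from the 5′ end of the locus. 9-qF4-150.2 (chromosome 9, 122780672 to 122805469, minus strand) spans 24.8 kb. 4-qB3-3994.3 (chromosome 4, 57356530 to 57364266, minus strand) spans 7.74 kb, and the lincRNA 1700042G15Rik on its strand covers 43.9% of it, with starts 26 bp apart. 19-qC2-1361.2 (chromosome 19, 37254673 to 37263866, minus strand) spans 9.19 kb and overlaps no GENCODE M21 gene, while the RefSeq long noncoding RNA 4931408D14Rik covers 59.2% of it. The start of 4931408D14Rik lies 229 bp before the 5′ end of the locus, and its window does not reach that end.

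A gene on the opposite strand starts beside 3 of the 6 loci. Tcaim starts 70 bp from the 5′ end of 9-qF4-150.2, the lincRNA Gm48190 starts 66 bp from that of 13-qA5-967.1, and Bclaf1 starts 291 bp inside that of 10-qA3-143.2. Within 500 bp of the 5′ end, such a start was found at 20 of the other 88 band-named loci (22.7%) and at 25 of the 114 gene-named loci (21.9%). With 6 loci, the 50% share was not tested and nothing is read from it. Besides Tcaim, Topaz1, a germ-cell gene needed for meiosis in male mice, lies on the opposite strand over 86.6% of 9-qF4-150.2, and its exons take up 6.92% of the locus. The first exon of Bclaf1, which encodes a nuclear protein, overlaps 292 bp (12.9%) of 10-qA3-143.2 in GENCODE, and in RefSeq the span of Bclaf1 covers 99.7% of the locus. The long RNA kit marks strand, but the strand setting of the counting is not given in the sources used here. If counting ignored strand, RNA of Topaz1 or Bclaf1 and RNA of the precursor cannot be told apart at these loci.

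**Figure D1:**
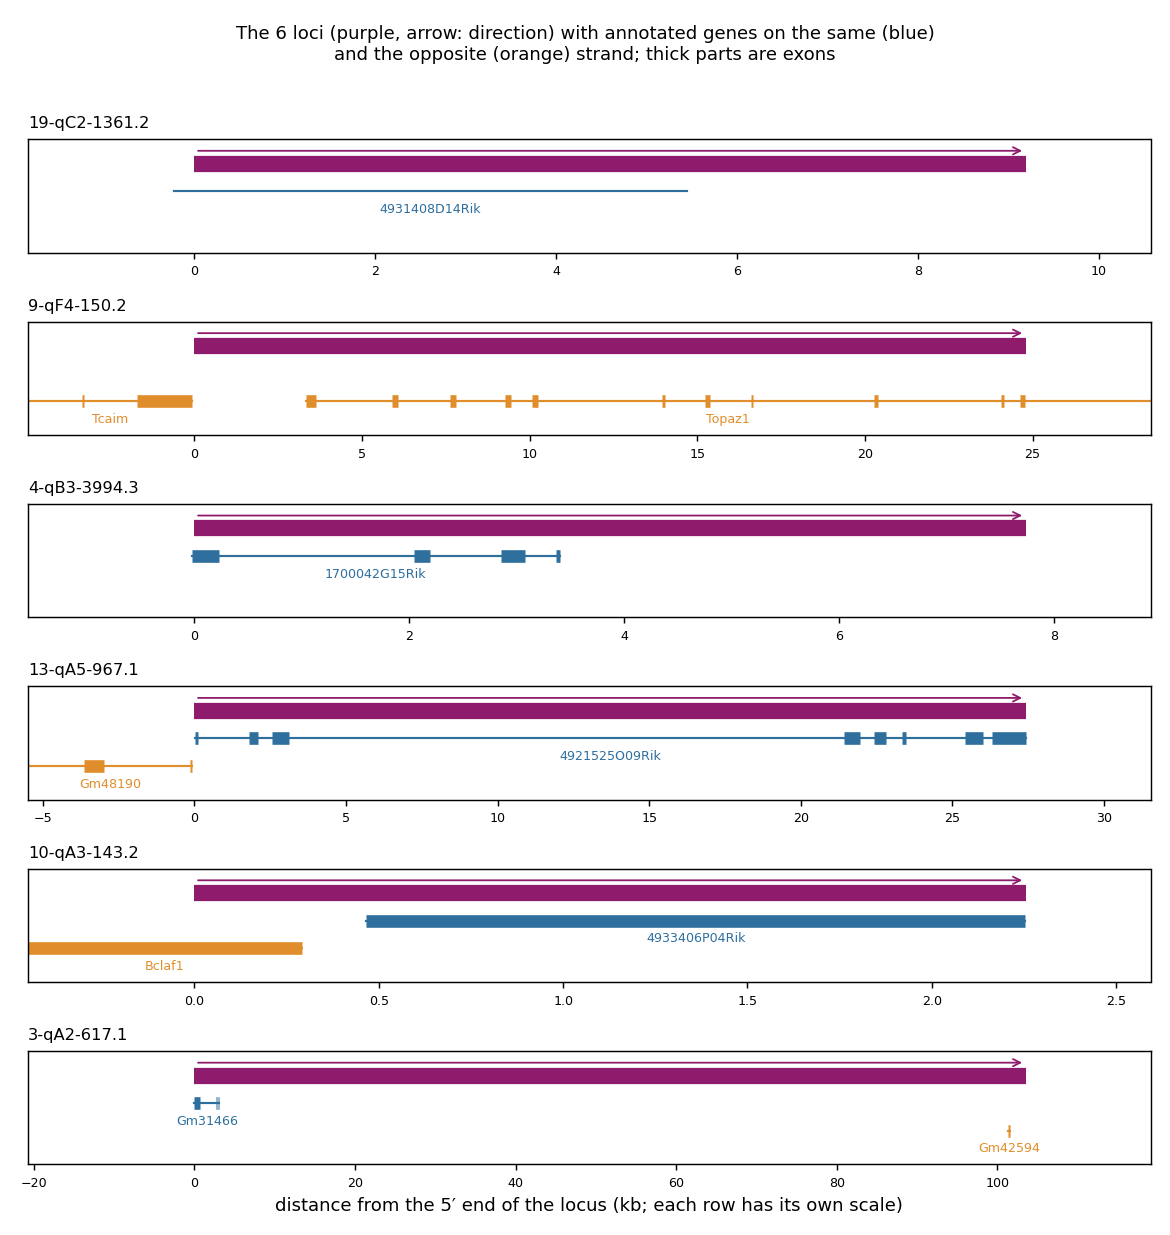
Each of the 6 loci is drawn with its own scale in kilobases, as distance from the 5′ end of the locus, with annotated genes by strand. Thick boxes are exons in GENCODE M21, and 4931408D14Rik is drawn as a thin line because only its RefSeq span was at hand. Gm31466 is drawn by its short GENCODE span. Genes on the opposite strand begin at or near the 5′ end of 9-qF4-150.2, 13-qA5-967.1 and 10-qA3-143.2.

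Levels are given below as the share of a library's estimated counts over the 208 loci, so a share can move because other loci move. Normalised levels are counts per 1000000 (CPM), scaled by edgeR's trimmed-mean factors; counts per kilobase are given per 1000000 counts of a library, without these factors. Log2 fold changes of Exd2∆ over Exd2+/+ come from its quasi-likelihood fit over all 208 loci of an assay. Errors of fold changes are standard errors, and other errors are SD over 2 libraries. A locus was called at a Benjamini-Hochberg adjusted p below 0.05.

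Whether a locus stood alone in its pair of calls was read from edgeR's quasi-likelihood fit with all libraries and not from the alternatives. In long RNA DESeq2 called 27 loci higher and 8 lower, against 14 and 2 in that fit. In the quasi-likelihood fit, 19-qC2-1361.2 was the only locus of the 208 called higher in Exd2∆ in both assays. Its small RNA share was 0.226% and 0.223% in the Exd2+/+ libraries and 0.382% and 0.358% in the Exd2∆ libraries. Its long RNA share was 0.330% and 0.313% in the controls and 0.797% and 0.707% in Exd2∆. Both Exd2∆ libraries stood above both controls in each assay. In small RNA the normalised count went from 2282 ± 11.4 to 3650 ± 345 CPM, a log2 fold change of 0.68 ± 0.07 (1.60-fold). In long RNA it went from 3150 ± 134 to 7678 ± 760 CPM, a log2 fold change of 1.29 ± 0.10 (2.44-fold). The difference was thus larger in precursor than in piRNA, and piRNA per precursor was lower in Exd2∆ although the piRNA share itself was higher. Leaving out Exd2+/+ long RNA replicate 1 or 2 ended the long RNA call while the log2 fold change was 1.33 or 1.24. By share of long RNA the locus stood at rank 101 of 208 in Exd2+/+ and at rank 43 in Exd2∆.

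In the quasi-likelihood fit, 9-qF4-150.2, antisense to Topaz1, was the only locus of the 208 called higher in small RNA and lower in long RNA. Its small RNA share was 0.0257% and 0.0248% in the Exd2+/+ libraries and 0.0374% and 0.0457% in the Exd2∆ libraries. Its long RNA share was 0.180% and 0.175% in the controls and 0.120% and 0.121% in Exd2∆. The genotypes did not overlap in either assay, and the Exd2∆ libraries were the high ones in small RNA and the low ones in long RNA. The small RNA level was 257 ± 5.19 CPM in Exd2+/+ and 408 ± 37.4 CPM in Exd2∆, a log2 fold change of 0.67 ± 0.10. The long RNA level was 1737 ± 36.5 and 1234 ± 9.80 CPM, a log2 fold change of -0.49 ± 0.08. Without Exd2+/+ long RNA replicate 1 or 2 it was -0.47 or -0.51 and not called. The signs are the reverse of those at loci with less piRNA and more precursor, but they are not particular to this locus. Of the other 88 band-named loci, 44 had a log2 fold change above 0 in small RNA and 61 had one below 0 in long RNA. 10-qB4-6488.2, for example, had 0.58 and -0.24. The Exd2+/+ small RNA libraries held 7470 and 9351 estimated counts of this locus, or 10.2 counts per kilobase per 1000000.

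4-qB3-3994.3 had the same arrangement with a smaller difference in long RNA, and by mean share it is the most abundant of the 6 loci in both assays in Exd2+/+, with 3-qA2-617.1 within the spread of the libraries in long RNA. Its small RNA share was 0.519% and 0.505% in the Exd2+/+ libraries and 0.811% and 0.960% in the Exd2∆ libraries. Its long RNA share was 0.800% and 0.827% in the controls and 0.667% and 0.644% in Exd2∆. The genotypes did not overlap in either assay. Small RNA went from 5198 ± 75.9 to 8692 ± 603 CPM, a log2 fold change of 0.74 ± 0.06, which was called. Long RNA was at 7967 ± 162 and 6695 ± 265 CPM, a log2 fold change of -0.25 ± 0.08, which was not called. Without Exd2∆ long RNA replicate 1 or 2 it was -0.29 or -0.21. The locus is short and dense: in Exd2+/+ it gave 661 small RNA and 1051 long RNA counts per kilobase per 1000000. By small RNA counts per kilobase it was rank 26 of 208 in Exd2+/+ and rank 6 in Exd2∆.

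**Figure D2:**
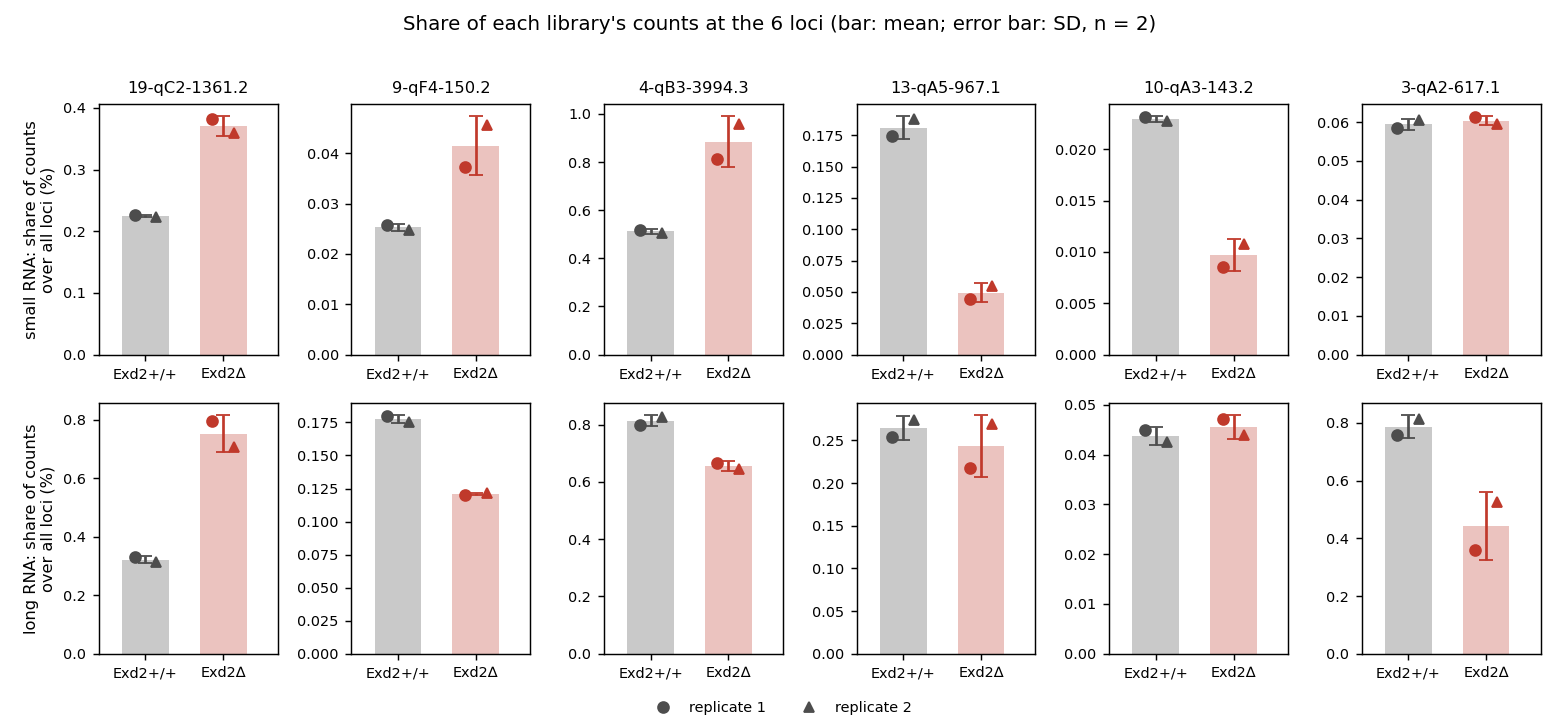
The share of each locus among all counts over the 208 loci, in percent, is plotted for every library in small RNA and in long RNA, each point being 1 library. The Exd2∆ libraries of 19-qC2-1361.2 are above the controls in both assays, those of 9-qF4-150.2 and 4-qB3-3994.3 are above them in small RNA and below them in long RNA, and those of 13-qA5-967.1 and 10-qA3-143.2 are below the controls in small RNA and overlap them in long RNA.

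13-qA5-967.1 had the largest difference in piRNA among the 6, with long RNA levels that overlapped. Its small RNA share was 0.174% and 0.187% in the Exd2+/+ libraries and 0.0441% and 0.0546% in the Exd2∆ libraries. Its long RNA share was 0.254% and 0.274% in the controls and 0.218% and 0.269% in Exd2∆. In small RNA the Exd2∆ libraries were far below the controls, whereas in long RNA 1 Exd2∆ library lay between the controls and the other below them. Small RNA went from 1839 ± 103 to 484 ± 49.1 CPM, 3.80-fold lower in Exd2∆, with a log2 fold change of -1.93 ± 0.08. Long RNA was at 2588 ± 128 and 2482 ± 334 CPM, a log2 fold change of -0.06 ± 0.12. The long RNA of this locus was not called in either direction.

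10-qA3-143.2, the short locus at the 4933406P04Rik lincRNA, behaved alike at a lower level. Its small RNA share was 0.0232% and 0.0227% in the Exd2+/+ libraries and 0.00857% and 0.0108% in the Exd2∆ libraries. Its long RNA share was 0.0451% and 0.0425% in the controls and 0.0472% and 0.0439% in Exd2∆. The small RNA shares were apart and the long RNA shares interleaved. Small RNA went from 233 ± 1.91 to 95.0 ± 10.6 CPM, a log2 fold change of -1.29 ± 0.12. Long RNA was at 429 ± 19.4 and 465 ± 31.0 CPM, a log2 fold change of 0.12 ± 0.10. This locus had the thinnest long RNA of the 6, with 454 to 783 counts per library, all of them whole numbers within 0.001. For counting error alone, its share is known to within 9.21% of its value at worst, by the 95% Wilson interval.

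3-qA2-617.1, the longest locus, had similar piRNA shares and less precursor in Exd2∆. Its small RNA share was 0.0584% and 0.0604% in the Exd2+/+ libraries and 0.0612% and 0.0595% in the Exd2∆ libraries. Its long RNA share was 0.760% and 0.815% in the controls and 0.359% and 0.526% in Exd2∆. Small RNA shares overlapped, while both Exd2∆ libraries were low in long RNA and stood far from each other. Small RNA was at 604 ± 17.2 and 594 ± 41.6 CPM, a log2 fold change of -0.02 ± 0.08. Long RNA was at 7714 ± 357 and 4505 ± 1141 CPM, a log2 fold change of -0.77 ± 0.18. With the Exd2∆ libraries differing 1.47-fold between themselves, the long RNA difference was not called here, whereas it was called with a replicate block, with edgeR's exact test and with DESeq2, and the authors' deposited table puts it under the same threshold. Without replicate 1 of Exd2∆ the log2 fold change was -0.54 and without replicate 2 it was -1.06. Divided by the length of the locus, the Exd2+/+ counts came to 76.1 in long RNA and 5.74 in small RNA per kilobase per 1000000. The tables hold 1 count per locus, so where along it the RNA lies was not measured.

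The counts of calls have to be read against all loci. In small RNA 64.9% of the 208 loci were called in either direction, 33.2% higher and 31.7% lower in Exd2∆, and the shares of the genotypes did not overlap at 80.8%. Of the 6 loci, 3 were called higher, 2 were called lower and 5 did not overlap. In long RNA 7.69% of loci were called, 6.73% higher and 0.962% lower, and the shares did not overlap at 63%. Of the 6 loci, 1 was called higher, 1 was called lower and 4 did not overlap. The long RNA calls rest on both controls: without Exd2+/+ replicate 1 or replicate 2, 0 of the 208 loci were called by edgeR, and 17 or 20 had an unadjusted p below 0.05. DESeq2 with all 4 libraries called 35. Without Exd2∆ replicate 1 or 2, 60 or 105 loci were called. The 6 loci were chosen on this contrast, so nothing is read from their counts. Over all loci the median log2 fold change was 0.04 in small RNA and 0.01 in long RNA. Over the other 88 band-named loci it was 0.00 and -0.12, with 61 of them below 0 in long RNA. Over the 114 gene-named loci it was 0.05 and 0.07. Over the 6 it was 0.32 and -0.16, in a range from -1.93 to 0.74 and from -0.77 to 1.29.

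The loci with the opposed pattern give the contrast. In the quasi-likelihood fits of both assays, 12 of the 208 loci were called lower in small RNA and higher in long RNA. Of these, 9 are band-named. In the 9 the median log2 fold change was -0.90 in small RNA and 0.64 in long RNA. The largest rises in long RNA among them were at 17-qC-935.1, with -2.08 ± 0.10 in small RNA and 2.01 ± 0.19 in long RNA, then at 1-qD-2017.2, with -1.28 ± 0.06 and 1.35 ± 0.13, and at 8-qA4-332.2, with -0.50 ± 0.06 and 0.92 ± 0.15. 13-qA5-967.1 thus had a difference in piRNA close in size to that of 17-qC-935.1, and a long RNA value near 0 in place of 2.01. That of 19-qC2-1361.2 in long RNA, 1.29, was close to that of 1-qD-2017.2, with the opposite sign in small RNA. Of the loci called lower in small RNA, 54 were called in neither direction in long RNA and 26 of these are band-named, 13-qA5-967.1 and 10-qA3-143.2 among them. Of the loci called higher in small RNA, 67 were not called in long RNA and 28 of these are band-named, 4-qB3-3994.3 among them. In these fits the number of loci called lower in small RNA and also lower in long RNA was 0.

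**Figure D3:**
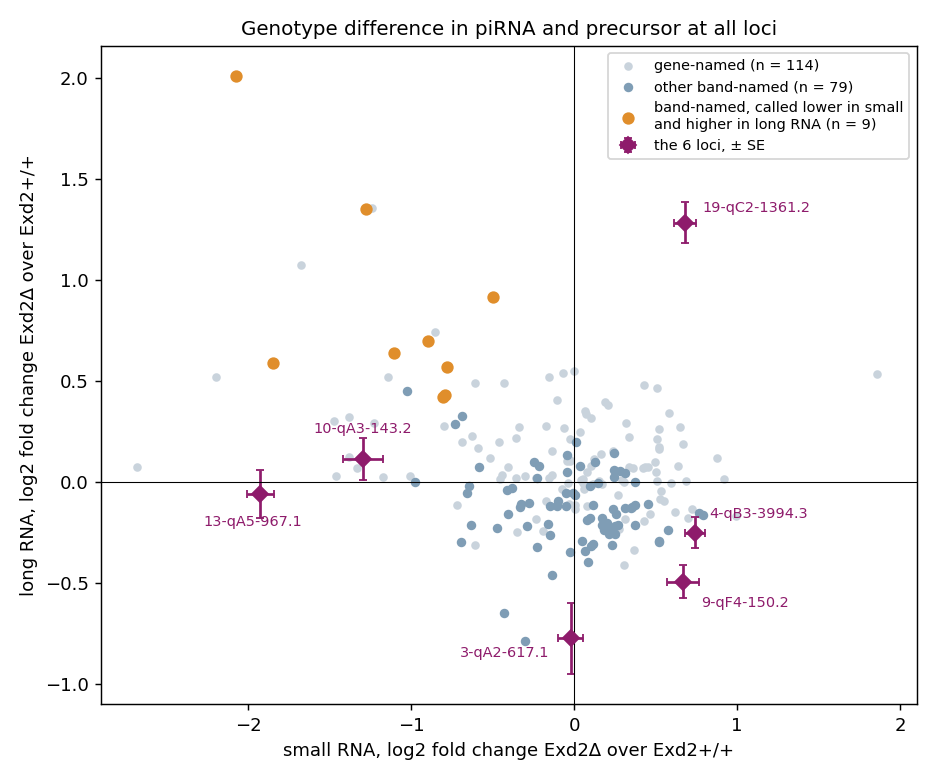
Each point is 1 of the 208 loci, placed by its log2 fold change of Exd2∆ over Exd2+/+ in small RNA (horizontal axis) and in long RNA (vertical axis), with standard errors for the 6 named loci. 19-qC2-1361.2 lies at upper right (0.68 and 1.29), 9-qF4-150.2 and 4-qB3-3994.3 lie at lower right, 13-qA5-967.1 (-1.93 and -0.06) and 10-qA3-143.2 lie at left near 0 in long RNA, 3-qA2-617.1 lies low near 0 in small RNA, and the band-named loci with less piRNA and more precursor fill the upper left.

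Some of the 6 had close counterparts among the other band-named loci. By distance in the plane of both log2 fold changes, each from 4 libraries, the nearest to 4-qB3-3994.3 was 7-qF3-246.1, at 0.10, with 0.79 ± 0.11 in small RNA and -0.16 ± 0.08 in long RNA. The nearest to 9-qF4-150.2 was 7-qD1-9417.1, at 0.24, with 0.52 ± 0.06 and -0.30 ± 0.11. The nearest to 3-qA2-617.1 was 14-qC1-1261.1, at 0.28, with -0.30 ± 0.12 and -0.79 ± 0.38. These loci have near neighbours in the plane. For 10-qA3-143.2 the nearest was 6-qC3-2394.2, at 0.34, with -0.97 ± 0.06 and 0.00 ± 0.14, and for 13-qA5-967.1 it was 10-qA3-143.2, at 0.65. The nearest to 19-qC2-1361.2, 6-qF3-8009.1, was 1.22 away, with 0.25 ± 0.05 and 0.14 ± 0.08. By this distance 19-qC2-1361.2 stood farthest from any other band-named locus among the 6. Gene-named loci were not searched, and some lie closer. Examples are pi-Zdhhc23.2, with -1.33 and 0.07, by 10-qA3-143.2, and pi-Ppp1r15b.1, with 0.51 and 0.47, by 19-qC2-1361.2.

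The nearest locus of the tables on the same chromosome lay far off in each case. It was 0.409 Mb from 4-qB3-3994.3 (pi-D730040F13Rik.1, with 0.37 ± 0.13 in small RNA and -0.34 ± 0.11 in long RNA, the same signs). For 13-qA5-967.1 it was 13-qA5-703.1, 1.16 Mb away, with -0.38 ± 0.06 and -0.03 ± 0.10. For 10-qA3-143.2 it was 10-qA3-2592.1, 1.48 Mb away, with -0.04 ± 0.06 and 0.13 ± 0.12. For 9-qF4-150.2 it was pi-Exog.2, 3.32 Mb away, with 0.52 ± 0.10 and 0.16 ± 0.12. For 19-qC2-1361.2 it was pi-Hif1an.1, 7.30 Mb away, with 0.58 ± 0.15 and 0.34 ± 0.15. For 3-qA2-617.1 it was pi-Zmat3.1, 11.8 Mb away, with 0.07 ± 0.13 and 0.34 ± 0.13.

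The level of piRNA relative to precursor in Exd2+/+ testis did not itself choose the loci, but its counts enter the fold changes that did. It was taken as the log2 ratio of mean small RNA CPM to mean long RNA CPM, with the range over the 4 pairings of libraries, and compares the 2 assays only on their own scales. In Exd2+/+ it was -0.47 at 19-qC2-1361.2 (range -0.51 to -0.42), -0.49 at 13-qA5-967.1 (-0.60 to -0.39), -0.62 at 4-qB3-3994.3 (-0.65 to -0.58) and -0.88 at 10-qA3-143.2 (-0.93 to -0.82). It was -2.76 at 9-qF4-150.2 (-2.80 to -2.72) and -3.68 at 3-qA2-617.1 (-3.75 to -3.60). In that order 19-qC2-1361.2 and 13-qA5-967.1 overlapped in range, as did 13-qA5-967.1 and 4-qB3-3994.3 at -0.60 against -0.58 and -0.65. 9-qF4-150.2 and 3-qA2-617.1 were clearly apart from the rest and from each other. Ranks among the 94 band-named loci, highest first, were 54, 55, 58, 63, 88 and 90. The other 88 band-named loci had a median of -0.08, with quartiles of -1.09 and 0.84, and the gene-named loci a median of -5.32. All 6 lay below the median of the other band-named loci. Of them, 9-qF4-150.2 and 3-qA2-617.1 lay below the lower quartile, and the rest lay between the quartiles.

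In Exd2∆ the ratio moved in both directions. It was lower by 1.87 at 13-qA5-967.1, by 1.41 at 10-qA3-143.2 and by 0.61 at 19-qC2-1361.2, where it came to -2.36, -2.29 and -1.07. It was higher at 9-qF4-150.2, by 1.16 to -1.60, at 4-qB3-3994.3, by 0.99 to 0.38, and at 3-qA2-617.1, by 0.75 to -2.92. The 9 opposed band-named loci moved by a median of -1.60, from -4.09 to -1.22, and the other 88 band-named loci by a median of 0.11. The change in the ratio is made of the genotype differences that chose the loci, so its ranks are a description with no test. By size of the rise, 9-qF4-150.2 and 4-qB3-3994.3 were rank 3 and rank 4 of the 208 loci. 13-qA5-967.1 and 10-qA3-143.2 were rank 8 and rank 20 from the lowest, within the range of the opposed loci, although their long RNA shares overlapped those of the controls.

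**Figure D4:**
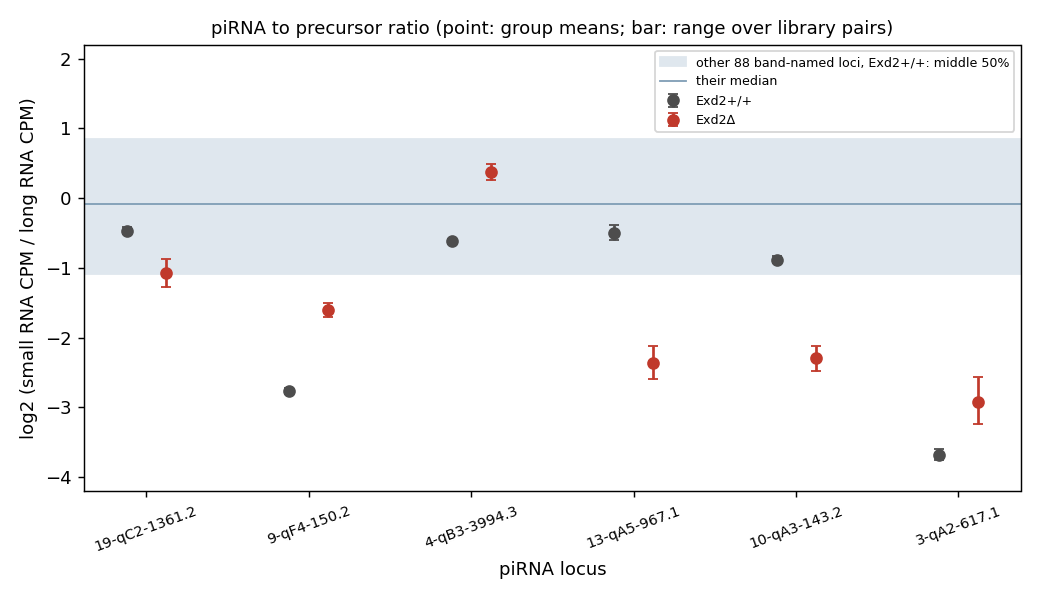
The log2 ratio of small RNA CPM to long RNA CPM is plotted for each of the 6 loci in Exd2+/+ and Exd2∆ testis, with bars for the range over the 4 pairings of libraries. The ratio is higher in Exd2∆ at 9-qF4-150.2, 4-qB3-3994.3 and 3-qA2-617.1 and lower at the other 3, with the largest difference, -1.87, at 13-qA5-967.1.

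Together the 6 loci took a small part of each library. Their summed small RNA share was 1.026% and 1.023% in the Exd2+/+ libraries and 1.344% and 1.489% in the Exd2∆ libraries. Their summed long RNA share was 2.369% and 2.447% in Exd2+/+ and 2.208% and 2.310% in Exd2∆. Small RNA was higher and long RNA slightly lower in both Exd2∆ libraries. As a part of the band-named loci alone, however, the long RNA sum was 3.62% in both genotypes, so its difference depended on the denominator. 4-qB3-3994.3 made up 49.9% of the small RNA sum in Exd2+/+ and 62.4% in Exd2∆. The part of 13-qA5-967.1 in that sum was 17.7% and 3.47%. In long RNA, 19-qC2-1361.2 made up 13.4% of the sum in Exd2+/+ and 33.3% in Exd2∆, while 3-qA2-617.1 made up 32.7% and 19.5%. The long RNA sum thus held a higher part from 19-qC2-1361.2 and a lower part from 3-qA2-617.1.

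The authors' deposited table gave log2 fold changes close to these. For 19-qC2-1361.2 the authors' deposited table lists 0.67 in small RNA and 1.27 in long RNA, and for 13-qA5-967.1 it lists -1.92 and -0.07. Its values carry the same sign as those above for all 6 loci in both assays. Of the 24 long RNA counts of the 6 loci, 6 were whole numbers within 0.001, and of the 24 small RNA counts 0 were, so most hold parts of reads, and how reads with several alignments were shared is not given in the sources used here. Counts of the 6 loci ranged from 2436 to 326152 in small RNA and from 454 to 15242 in long RNA, with Wilson intervals that cover counting error only.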

How the data were processed

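Testis RNA of Exd2∆ and Exd2+/+ mice was read as small RNA and long RNA, with 2 libraries per genotype and assay, single-end to 50 nt per the labels' protocols. For each assay the authors deposited estimated counts for 208 piRNA loci, together with their log2 fold change and adjusted p-value. The tools named in the submitters' processing notes are edgeR, STAR and cutadapt, and the build is GRCm38. Which versions were run, how reads were counted, whether by strand, and how multiply aligned reads were shared is not given in the sources used here. Columns were matched to samples by the codes in the labels, with 0 left unmatched.

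Estimated counts were rounded and fitted per assay with edgeR 4.0.16 under R 4.3.3 (all 208 loci passed filterByExpr; TMM scaling, glmQLFit with the legacy option, glmQLFTest, genotype as the only term). P-values were adjusted by Benjamini-Hochberg over 208 loci, and calls made below 0.05. Standard errors are the log2 fold change over the root of the F statistic. Shares used the deposited counts. Alternatives were other scaling and filters, edgeR's default option and exact test, DESeq2 1.42.0, a replicate block, another denominator and leaving out each library. The small RNA libraries held 28408830 to 37660202 and the long RNA libraries 960909 to 1842625 counts over the loci, so the latter are less precise.

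The loci and the comparison lists were chosen with earlier results of these data known. The loci named besides the 6 are the nearest on the chromosome, the nearest in the plane of fold changes, and the 3 opposed band-named loci with the largest long RNA rise.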

Additional observations from a re-analysis of the deposited data

How the results depend on the processing

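In small RNA, 5 of the 6 loci were called under every alternative run, and calls over all loci ranged from 101 to 138 around 135. In long RNA the calls over all loci, 16, became 38 with a replicate block, 25 with edgeR's exact test and 35 with DESeq2, and ranged from 0 to 105 when 1 library was left out: 0 without either Exd2+/+ library, 60 without replicate 1 and 105 without replicate 2 of Exd2∆. Of the 6 loci 2 were called in long RNA, with a range of 0 to 4 when 1 library was left out; the block, the exact test and DESeq2 each gave 3 by adding 3-qA2-617.1, and leaving out either Exd2∆ library gave 4 by adding 4-qB3-3994.3 as well. With an Exd2+/+ library left out, where the lone control is assumed to vary like the Exd2∆ libraries, 0 loci were called by edgeR and 17 (replicate 1 left out) or 20 (replicate 2 left out) had an unadjusted p below 0.05. The labels do not say that a replicate number marks shared animals or days, and with 2 numbers the data cannot settle it: deviations of same-numbered libraries correlated by 0.04 in small RNA and 0.34 in long RNA. Over the band-named loci alone the summed share in Exd2+/+ was 1.06% in small RNA and 3.62% in long RNA, and that in Exd2∆ long RNA 3.62%; with TMM scaling the Exd2+/+ small RNA sum was 1.04%. Of 144 fold changes of the 6 loci under alternatives, 143 moved by less than the spread between replicates, as did 58 of 60 ratios and 74 of 96 shares. The fold change that moved further was that of 9-qF4-150.2 in long RNA with library totals (-0.55). These tallies overstate stability, because many of the comparisons could hardly come out otherwise. With 2 libraries per group, leaving 1 out moves a mean share by less than the SD. It also keeps a ratio within its range over the pairings of libraries. The shares and ratios that moved further all did so with another denominator or scaling. Fits with no filter repeated the main fold changes, because every locus had passed the filter. Fold changes near 0 changed sign: that of 3-qA2-617.1 in small RNA, -0.02, was 0.04 without replicate 2 of Exd2∆, and that of 13-qA5-967.1 in long RNA, -0.06, was 0.07 without replicate 1. The cause was not tested. Among the 6 loci counting error was largest at 10-qA3-143.2 in long RNA, 4.69% at most.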
